A study of Mus musculus with 12 samples.

Results

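The genes described here were 10 brakes on cell division, namely the 4 INK4 inhibitors of cyclin-dependent kinases (CDKs) Cdkn2a, Cdkn2b, Cdkn2c and Cdkn2d, the 3 CIP/KIP inhibitors Cdkn1a, Cdkn1b and Cdkn1c, and the 3 growth arrest genes Gadd45a, Gadd45b and Gadd45g. They were 10 of 23715 genes in the files, picked by name, and their level in a mouse was the summed value of all RefSeq transcripts of the gene. The picks were made with the mutant and control values of the same mice known, so the levels and fold changes of these 10 genes are a description. Where they are counted at the threshold used for all genes, the count describes the fit and is no independent test of them.

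RNA-seq of calvaria, the flat bones of the skull vault, was performed on 12 newborn C57BL/6 mice in 4 groups of 3. P-KO mice (Med23MSC-/-) lacked Med23, a subunit of the Mediator complex, in mesenchymal cells. P-Ctrl mice were their littermates. R-Het mice carried 1 disrupted copy of Runx2, the transcription factor that specifies osteoblasts, and R-WT mice were wild-type. The Med23 deletion removed floxed exons by Prx1-Cre, which acts largely in limb and craniofacial mesenchyme, so blood, vessel and other cells in the same bone kept the gene. The labels give the P-Ctrl genotype as wild-type. In its figure legends the paper writes the controls of this cross as Med23fl/fl, and it names Prx1-Cre for the mutants only. The tissue is named parietal bone, taken at P2, in the methods. No control mice were shared between both crosses.

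INK4 proteins bind Cdk4 and Cdk6 and keep cyclin D from activating them, which leaves the retinoblastoma protein in its repressive state. CIP/KIP proteins bind assembled cyclin-CDK complexes, and Cdkn1a is the classical p53 target among them. Gadd45 proteins are small stress sensors that bind Pcna and Cdkn1a and activate the kinase Map3k4. In bone, leaving the cell cycle accompanies the maturation of osteoblasts and chondrocytes, and Cdkn1c, an imprinted gene, is abundant in skeletal tissue of the newborn.

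The libraries were estimated to hold 7760000 to 11700000 fragments. Neither targeted gene was lower in the mutants of its own cross. Med23 stood at 5.32 ± 0.732 FPKM (a level per transcript length and library size; SD, n = 3) in the libraries labelled P-Ctrl and at 5.30 ± 0.425 FPKM in those labelled P-KO. Runx2 stood at 31.6 ± 5.39 FPKM in R-WT and at 33.5 ± 2.76 FPKM in R-Het. In the Med23 cross, Runx2 was at 30.5 to 38.0 FPKM in P-Ctrl and 23.7 to 28.7 FPKM in P-KO, without overlap (log2 fold change -0.40 ± 0.118, adjusted p = 0.127 in limma). Summed transcripts of whole tissue check a deletion of a few exons in some of its cells, or of 1 copy, only weakly. Directions below rest on the labels. The control groups were mixed in sex and the mutant groups were not, since Xist, the RNA of the inactive X chromosome, was at 37.8 FPKM or more in P-Ctrl 2, P-Ctrl 3 and R-WT 1 and below 0.07 FPKM in the other 9 mice.

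The starting regions of the 3 genes whose P-KO values lay below P-Ctrl without overlap are printed, with both start sites of Cdkn1a. Each runs from 250 bases before to 50 bases after a RefSeq start site in GRCm38.p6. The table used here held 12 such windows for 9 of the 10 genes. Capitals mark motif matches.

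Gadd45a, chr6:67037358-67037657, minus strand: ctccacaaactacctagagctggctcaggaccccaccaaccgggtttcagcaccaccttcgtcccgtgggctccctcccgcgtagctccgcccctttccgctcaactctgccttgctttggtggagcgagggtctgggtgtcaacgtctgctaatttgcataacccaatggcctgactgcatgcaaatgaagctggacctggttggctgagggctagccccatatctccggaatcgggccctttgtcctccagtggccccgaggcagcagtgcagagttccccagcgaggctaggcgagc

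Cdkn2b, chr4:89310983-89311282, minus strand: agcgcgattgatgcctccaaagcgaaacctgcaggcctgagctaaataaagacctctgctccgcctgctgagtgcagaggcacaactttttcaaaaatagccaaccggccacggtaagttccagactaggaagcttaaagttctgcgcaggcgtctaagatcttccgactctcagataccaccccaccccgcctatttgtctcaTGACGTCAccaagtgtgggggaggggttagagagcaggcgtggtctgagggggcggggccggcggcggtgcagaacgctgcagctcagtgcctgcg

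Cdkn1a, upstream start, chr17:29090729-29091028, plus strand: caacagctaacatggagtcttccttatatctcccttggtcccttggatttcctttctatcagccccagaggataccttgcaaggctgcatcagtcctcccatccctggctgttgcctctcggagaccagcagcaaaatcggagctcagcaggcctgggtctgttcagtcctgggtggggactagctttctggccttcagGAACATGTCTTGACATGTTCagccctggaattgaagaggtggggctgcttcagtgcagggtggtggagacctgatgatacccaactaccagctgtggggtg

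Cdkn1a, downstream start, chr17:29093519-29093818, plus strand: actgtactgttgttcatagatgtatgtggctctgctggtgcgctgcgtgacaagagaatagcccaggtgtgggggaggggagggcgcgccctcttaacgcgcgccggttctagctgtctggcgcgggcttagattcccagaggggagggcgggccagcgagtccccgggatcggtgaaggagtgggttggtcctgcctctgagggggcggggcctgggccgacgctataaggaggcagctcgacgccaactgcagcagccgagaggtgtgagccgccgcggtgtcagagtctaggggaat

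The Gadd45a window and the downstream Cdkn1a window held none of the motifs searched. The capitals in Cdkn2b are a cAMP response element, TGACGTCA, 46 to 39 bases before the start, which 1.79% of all 32851 windows held and no other window of these genes did. The capitals in the upstream Cdkn1a window, 51 to 32 bases before the start, are a p53 response element of 2 adjoining half-sites of 10 bases with 1 mismatch. The p53 search was added after the other motifs had been searched. Its first version, with no mismatch allowed, found 0 of the 12 windows and 3 of all 32851. Allowing 1 mismatch was chosen after that result, and the looser version found 1 of the 12 windows and 29 of all 32851 (0.0883%), so the match is a description of a known kind of sequence and not the outcome of a planned search. The RUNX core TGTGGT was in 0 of the 12 windows (16.8% of all windows held it on either strand), and the AP-1 motifs TGACTCA and TGAGTCA were in 0 of 12 (5.2% of all). The TATA box TATAAA was in the Gadd45b and Gadd45g windows (13.6% of all).

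In the control mice, the inhibitors spanned a wide range of levels. Cdkn1c (chr7:143458339-143461059) led with a median of 277 FPKM over the 6 control mice (195 to 367), and Cdkn1a (chr17:29090979-29100722) followed with 69.2 FPKM (55.3 to 79.7). Cdkn2d, Cdkn2c, Cdkn1b, Gadd45g, Gadd45a and Gadd45b came next, with medians from 28.5 down to 15.1 FPKM, and each overlapped its neighbour in this order. Cdkn2b had a median of 6.04 FPKM (4.93 to 8.46), and Cdkn2a was last at 1.15 FPKM (0.440 to 1.57). Neighbours in the order did not overlap at Cdkn1c against Cdkn1a, Cdkn1a against Cdkn2d, Gadd45b against Cdkn2b, and Cdkn2b against Cdkn2a. The controls of Cdkn1a split by cross, at 74.4 to 79.7 FPKM in P-Ctrl and 55.3 to 63.9 FPKM in R-WT. Those of Gadd45g did too, at 18.2 to 28.3 FPKM in P-Ctrl and 11.2 to 17.5 FPKM in R-WT. The pooled medians of both genes therefore lay between the crosses.

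**Figure D1:**
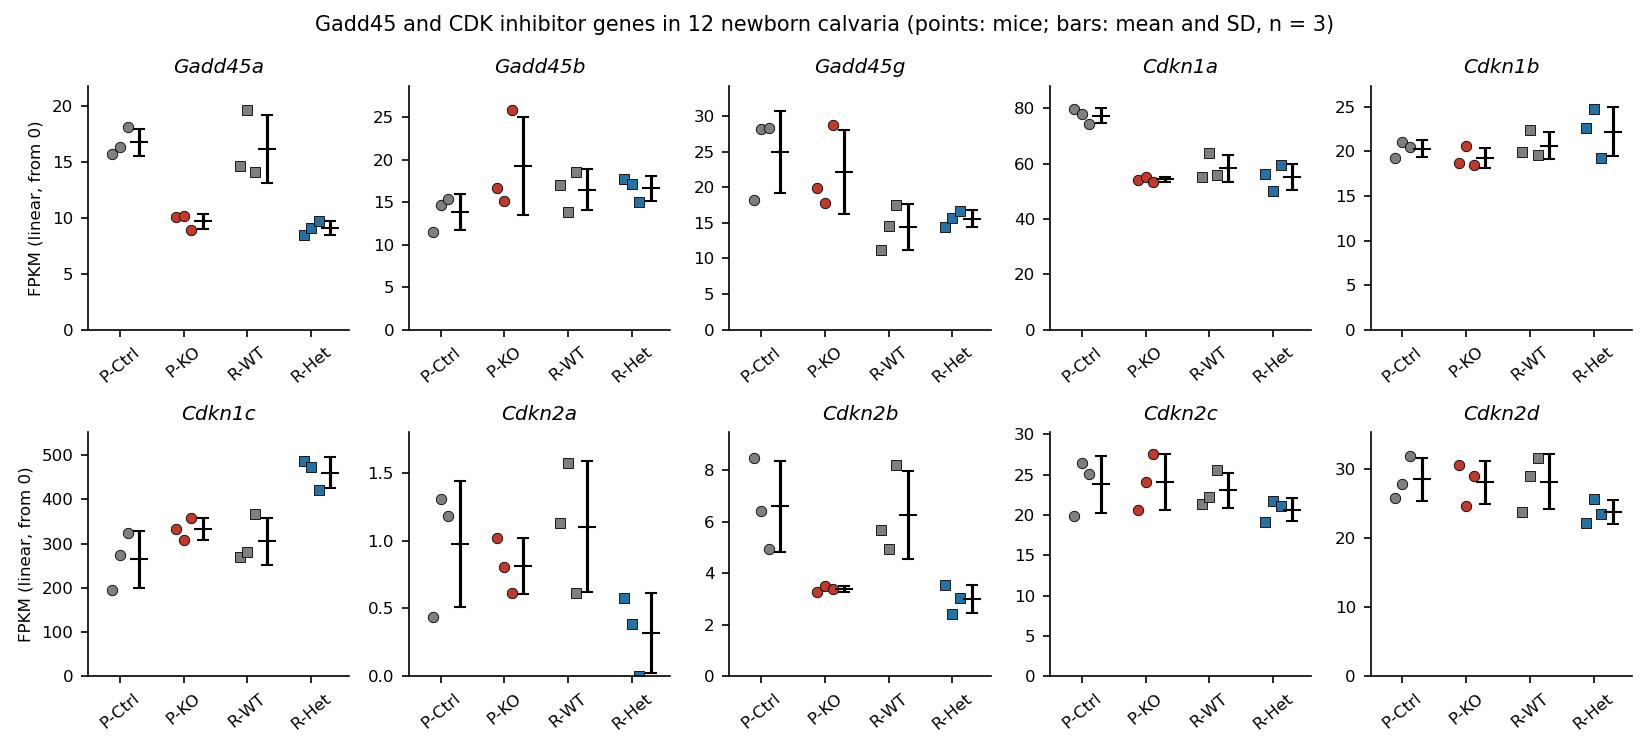
FPKM of each of the 10 genes (linear axis from 0) in the 12 mice by group, with points for mice and a bar for the mean and SD of 3 mice. Gadd45a and Cdkn2b lie lower in both mutant groups than in their controls without overlap, Cdkn1a lies lower in P-KO and overlaps in R-Het, and Cdkn1c lies higher in R-Het.

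Gadd45a (chr6:67035096-67037407), which joins stress signals to arrest at the G2/M boundary, was lower in the mutants of both crosses. It measured 15.8, 16.4 and 18.1 FPKM in the libraries labelled P-Ctrl and 10.1, 10.2 and 8.95 FPKM in those labelled P-KO. It measured 14.7, 19.6 and 14.1 FPKM in R-WT and 8.49, 9.10 and 9.71 FPKM in R-Het. Every mutant mouse lay below every control mouse, of its own cross and of the other. The change was -0.73 ± 0.0935 (SE) between P-KO and P-Ctrl and -0.75 ± 0.130 between R-Het and R-WT, as log2 fold change of FPKM + 1, and the ratio of the means was 0.580 and 0.563. The estimated number of fragments behind a value was between 92 and 235.

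The groups of its relatives overlapped. Gadd45b (chr10:80930091-80932204), an early responder to stress and cytokines, measured 11.5, 14.7 and 15.4 FPKM in P-Ctrl and 16.7, 15.1 and 25.8 FPKM in P-KO. It measured 17.0, 13.8 and 18.5 FPKM in R-WT and 17.7, 17.1 and 15.01 FPKM in R-Het. P-KO 3 was the highest of the 12 mice. Gadd45g (chr13:51846675-51848475), known from differentiating and developing tissue, ranged from 17.7 to 28.8 FPKM over the Med23 cross and from 11.2 to 17.5 FPKM over the Runx2 cross, with overlapping groups in each.

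Cdkn2b (chr4:89306289-89311032), the INK4 inhibitor best known as a target of TGF-β, was the other gene below its controls in both crosses. It measured 8.46, 6.41 and 4.94 FPKM in P-Ctrl and 3.27, 3.49 and 3.37 FPKM in P-KO. It measured 5.68, 4.93 and 8.20 FPKM in R-WT and 3.53, 2.43 and 3.05 FPKM in R-Het. The mutant values were narrow and the control values wide, without overlap in either cross. The log2 fold change of FPKM + 1 was -0.77 ± 0.167 (SE) in the Med23 cross and -0.84 ± 0.18 in the Runx2 cross. Neither passed an adjusted p under 0.05 in limma. As few as 30 fragments were estimated behind a value, which adds counting error to the spread between mice, and adding 1 to a low FPKM makes its fold change look smaller than the ratio of means, which was 0.511 and 0.479.

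Cdkn2a (chr4:89274473-89294619), 11.7 kb from Cdkn2b, encodes p16Ink4a and, from a start site 12.4 kb further upstream, Arf, which stabilizes p53. It reached 1 FPKM in 5 of the 12 mice, 4 of them controls. It measured 0.440, 1.30 and 1.18 FPKM in P-Ctrl and 1.02, 0.804 and 0.614 FPKM in P-KO. It measured 1.13, 1.57 and 0.610 FPKM in R-WT and 0.577, 0.385 and 0 FPKM in R-Het. The P-KO values lay within the range of P-Ctrl, and the R-Het values lay just under those of R-WT. Between 0 and 14 fragments were estimated behind a value, too few for the order of its groups or its plotted fold change to be described.

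The remaining INK4 genes kept to their control ranges more closely. Cdkn2c (chr4:109660876-109666756), which like Cdkn2d is expressed in dividing and differentiating cells, ranged from 19.8 to 26.5 FPKM in P-Ctrl and 20.6 to 27.5 FPKM in P-KO, and from 21.4 to 25.5 FPKM in R-WT and 19.1 to 21.8 FPKM in R-Het. Cdkn2d (chr9:21288459-21291421) ranged from 25.9 to 31.9 FPKM in P-Ctrl and 24.6 to 30.6 FPKM in P-KO, and from 23.8 to 31.7 FPKM in R-WT and 22.2 to 25.6 FPKM in R-Het. All 4 of these comparisons overlapped.

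Cdkn1a (chr17:29090979-29100722) was lower in P-KO than in P-Ctrl without overlap and overlapped in the Runx2 cross. It measured 79.7, 78.1 and 74.4 FPKM in P-Ctrl and 54.3, 55.3 and 53.3 FPKM in P-KO. It measured 55.3, 63.9 and 55.9 FPKM in R-WT and 56.1, 50.2 and 59.4 FPKM in R-Het. P-Ctrl was the group that stood apart, since P-KO, R-WT and R-Het all lay between 50.2 and 63.9 FPKM. The log2 fold change of FPKM + 1 was -0.50 ± 0.0715 (SE) in the Med23 cross and -0.08 ± 0.0986 in the Runx2 cross.

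Nearly all Cdkn1a signal came from the downstream start site, which lies 2.79 kb from the upstream one. That transcript measured 78.6, 75.4 and 73.5 FPKM in P-Ctrl and 52.3, 50.8 and 51.4 FPKM in P-KO. The upstream transcript, whose start region is printed above, measured 1.07, 2.66 and 0.939 FPKM in P-Ctrl and 1.98, 4.46 and 1.92 FPKM in P-KO, so the fall lay in the downstream transcript. The upstream share of Cdkn1a was 1.26% to 3.40% in P-Ctrl and 3.61% to 8.06% in P-KO. Only 11.1, 26.3 and 8.08 fragments in P-Ctrl and 16.3, 33.4 and 16.6 in P-KO were estimated behind the upstream transcript. The gap between 3.40% and 3.61% therefore rests on few fragments. The shares overlapped between R-WT and R-Het, at 1.70% to 8.30% in R-WT and 4.14% to 8.47% in R-Het. The split between transcripts is the authors' estimate from shared reads.

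Cdkn1c, which restrains growth in embryonic tissue, had higher means in both mutant groups than in their controls. It measured 195, 274 and 323 FPKM in P-Ctrl and 333, 309 and 359 FPKM in P-KO. It measured 269, 281 and 367 FPKM in R-WT and 488, 473 and 421 FPKM in R-Het. The Med23 groups overlapped, and every R-Het mouse lay above every R-WT mouse. The log2 fold change of FPKM + 1 was 0.36 ± 0.178 (SE) and 0.60 ± 0.134, and neither was called. The Med23 value was 0.16 without P-Ctrl 1 and 0.77 with male libraries only. The Runx2 value was 1.30 with the mean log2 level of the muscle markers as a covariate. Those markers separated R-WT from R-Het, so muscle and genotype cannot be told apart in that value. The minor Cdkn1c transcript made up 11.7% to 15.9% of the gene in all 12 mice. Cdkn1b (chr6:134920401-134925525), whose protein is set mainly by its turnover, stayed between 18.5 and 24.7 FPKM in all 12 mice, with overlapping groups in both crosses.

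**Figure D2:**
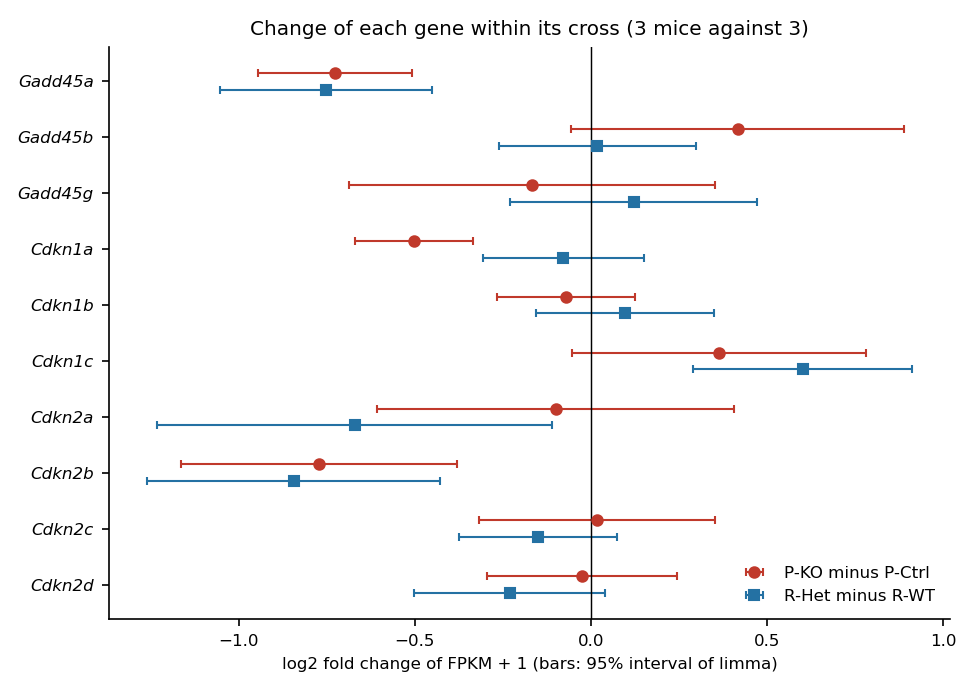
Log2 fold change of FPKM + 1 for each gene, P-KO minus P-Ctrl (circles) and R-Het minus R-WT (squares), with the 95% interval of the limma fit of 6 mice as bars. Gadd45a is at -0.73 and -0.75, Cdkn2b at -0.77 and -0.84, and Cdkn1a at -0.50 and -0.08.

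Over the whole group, 3 of 10 genes were below without overlap in P-KO (Cdkn1a, Cdkn2b and Gadd45a) and 0 above, where 7.68% of the 13059 tested genes lay below and 19.6% above. In R-Het, 3 of 10 lay below (Cdkn2a, Cdkn2b and Gadd45a) and 1 above (Cdkn1c), where 10.4% of all tested genes lay below and 10.7% above. Cdkn2a was counted there by 0.577 FPKM in R-Het against 0.610 FPKM in R-WT. With at most 14 fragments behind a value, that order is too uncertain to be described. Cdkn2b and Gadd45a lay below in both crosses, as did 1.7% of all tested genes. At an adjusted p under 0.05 in limma, Cdkn1a and Gadd45a were lower in P-KO (0.559% of all tested genes were) and Gadd45a in R-Het (1.49% of all). None of them was higher at that threshold in either cross, where 1.01% and 0.398% of all tested genes were. None of the 10 genes passed for a difference between the crosses, for which 0.153% of all tested genes did, and 1 (Cdkn1a) had an unadjusted p under 0.05, beside 15.3% of all. Their median change on the log2 scale was -0.09 in the Med23 cross and -0.11 in the Runx2 cross, beside 0.06 and 0.02 over all tested genes. Since the genes were picked with these contrasts known, nothing is read from these counts.

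Leaving out any 1 of the 6 mice of the Med23 cross ended both calls there, with log2 fold changes of -0.77 to -0.67 for Gadd45a and -0.53 to -0.48 for Cdkn1a. In the Runx2 cross, Gadd45a kept its call without R-WT 2 and lost it without any other mouse, with log2 fold changes of -0.83 to -0.61. Scaling all mice to the same FPKM sum also ended this call (-0.72), while Cdkn1c was called in its place (0.64). With male libraries only, which left 1 P-Ctrl mouse and 2 R-WT mice, Gadd45a changed by -0.65 and -0.81 and Cdkn2b by -1.11 and -0.89 on the log2 scale.

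The other cell cycle genes were followed in 7 lists with 108 tested genes outside the group of 10. At an adjusted p under 0.05 in limma, 6 of the 108 were called in the Med23 cross, where 0.559% of all tested genes were lower and 1.01% higher. The Runx2 cross had 0 of 108 called, where 1.49% of all tested genes were lower and 0.398% higher. In the Med23 cross 0 of 15 cyclins and CDKs, 0 of 12 genes of RB and E2F and 0 of 16 replication and mitosis genes had an adjusted p under 0.05, with median log2 fold changes of 0.15, 0.10 and 0.43. At an unadjusted p under 0.05, 8 of the 16 replication and mitosis genes were higher, beside 15.7% of all tested genes. That share depends on scaling, since 2046 of the 13059 tested genes were higher as deposited and 1004 with the same FPKM sum in each mouse. The replication and mitosis list summed to 319 FPKM in P-Ctrl 1, 458 FPKM in P-Ctrl 2, 464 FPKM in P-Ctrl 3 and 515 to 596 FPKM in P-KO. Its largest difference was that of Mcm6, a subunit of the replicative helicase, at 13.7 to 25.7 FPKM in P-Ctrl and 26.5 to 31.3 FPKM in P-KO (0.54 ± 0.211, adjusted p = 0.207 in limma). In the Runx2 cross the same list had a median of -0.14 and 0 of 16 calls, and its largest difference was that of Birc5, the mitotic protein survivin, at 40.9 to 53.3 FPKM in R-WT and 31.7 to 34.1 FPKM in R-Het (-0.53 ± 0.109, adjusted p = 0.0568).

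Genes of the p53 pathway, which shares Cdkn1a and Gadd45a as targets, had 0 of 21 calls in either cross, with medians of 0.03 and -0.03. The largest differences were those of Perp in P-KO (0.53 ± 0.139, adjusted p = 0.101 in limma) and of Pmaip1, which encodes the apoptosis protein Noxa, in R-Het (-0.80 ± 0.158, adjusted p = 0.0523). Among 15 genes of inhibitor turnover and silencing, Tbx2, a repressor of Cdkn2a and Cdkn1a, fell in P-KO, from 18.3 to 22.9 FPKM in P-Ctrl to 8.66 to 10.9 FPKM (-1.04 ± 0.121, adjusted p = 0.0211 in limma). Tbx2 measured 12.8 to 20.4 FPKM in R-WT and 16.1 to 20.7 FPKM in R-Het. The kinases and demethylation partners of Gadd45 proteins had 0 of 11 calls in both crosses. The largest difference in the Med23 cross was that of Tdg (-1.59 ± 0.664, adjusted p = 0.227 in limma). Tdg was at 7.95 to 8.91 FPKM in P-Ctrl and spread from 0.449 to 9.50 FPKM in P-KO (mean 3.62, SD 5.10). It was higher than P-Ctrl in both groups of the Runx2 cross, at 16.7 to 17.5 FPKM in R-WT and 16.7 to 19.3 FPKM in R-Het. The largest difference in the Runx2 cross was that of Gadd45gip1 (-0.32 ± 0.0829, adjusted p = 0.110 in limma).

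Immediate early genes, which like Gadd45b answer stimuli within minutes, held 5 of the 6 list genes called in the Med23 cross. Of the 19 tested, 5 were called lower, where 0.559% of all tested genes were, and 0 were called higher. The 3 called genes with the largest change were Egr1, Egr3 and Ier2. Egr2 and Junb, named after their values were seen, were the other 2. Atf3, Myc, Klf6, Jun and Btg2, also named after that, went the other way (log2 fold changes of 0.49, 0.46, 0.29, 0.29 and 0.01). The median over the 19 was -0.22, beside 0.06 over all tested genes. With 1 mouse of the cross left out, between 0 and 3 list genes were called. Egr1, a zinc finger factor, was at 25.4 to 39.6 FPKM in P-Ctrl and 6.38 to 7.35 FPKM in P-KO (-1.99 ± 0.168, adjusted p = 0.0211 in limma). Egr3 was at 4.26 to 6.26 FPKM and 1.92 to 1.94 FPKM (-1.12 ± 0.140, adjusted p = 0.0265), and Ier2 at 29.4 to 35.5 FPKM and 14.7 to 20.8 FPKM (-0.88 ± 0.142, adjusted p = 0.0401). Of the 19, 0 passed in the Runx2 cross, and the largest difference was that of Junb, an AP-1 subunit (-0.72 ± 0.220, adjusted p = 0.166).

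**Figure D3:**
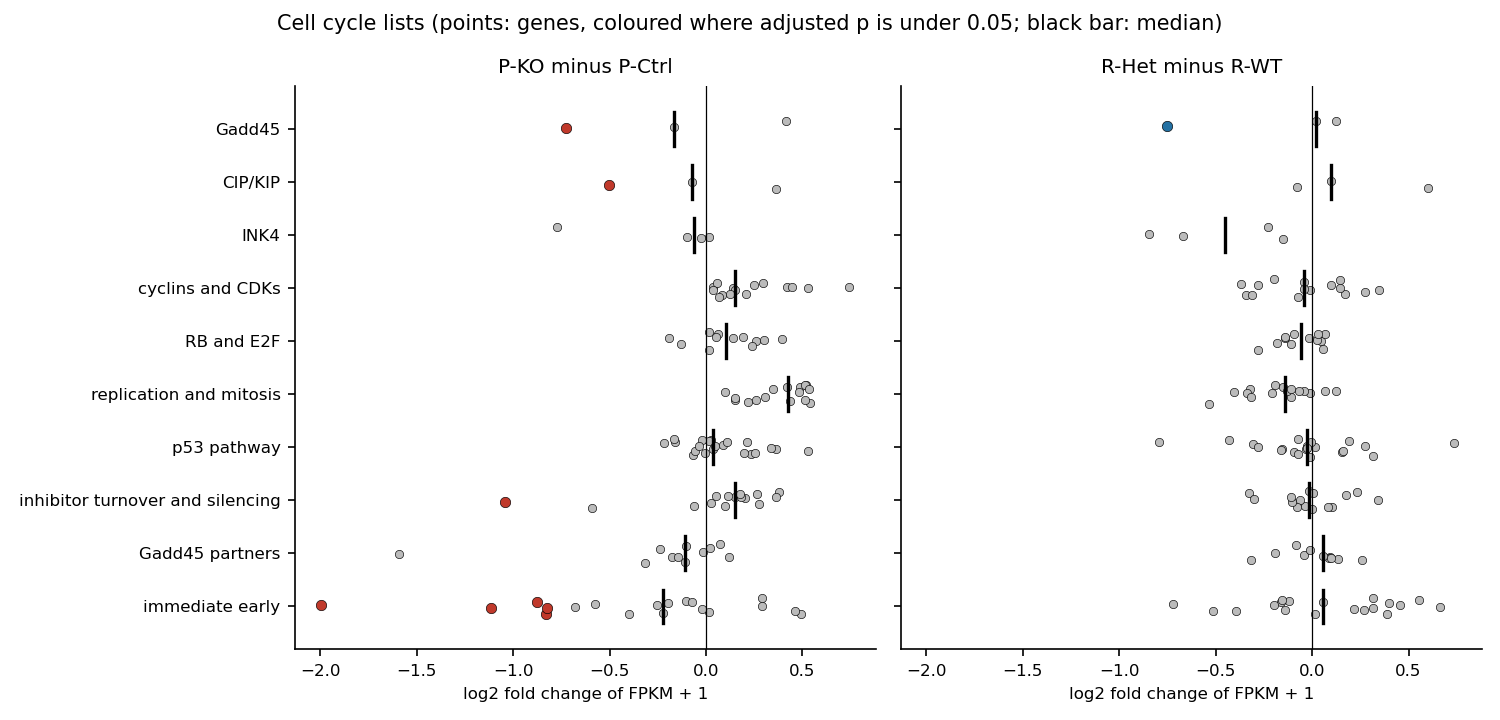
Log2 fold change of FPKM + 1 of the genes of the 3 families and 7 lists in the Med23 cross (left) and the Runx2 cross (right), with points for genes, coloured at an adjusted p under 0.05, and a black bar for the median. In the Med23 cross 5 immediate early genes and Tbx2 are coloured on the lower side beside Gadd45a and Cdkn1a, and in the Runx2 cross Gadd45a alone is.

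Markers of cell types moved with the groups, and in whole bone fewer cells of a type and less RNA per cell cannot be told apart. The summed level of 14 osteoblast genes was 55023 to 58490 FPKM in P-Ctrl and 27430 to 36228 FPKM in P-KO, with 2 of 14 lower in limma, and 43764 to 51397 FPKM in R-WT and 32294 to 44746 FPKM in R-Het, with 0 of 14. The 10 cartilage genes summed to 155 to 202 FPKM in P-Ctrl and 79.1 to 98.4 FPKM in P-KO, with 1 of 9 tested genes lower in limma. Acan, Sox9 and Col9a2 went the other way, with log2 fold changes of 0.50, 0.22 and 0.16. Erythroid genes also summed to less in P-KO without overlap (15706 to 21396 FPKM in P-Ctrl, 8663 to 14412 FPKM in P-KO), with 0 of 8 called. Neural and Schwann genes summed to more (16.3 to 20.5 FPKM and 27.4 to 40.3 FPKM), with 0 of 6 called and Stmn2 lower (-0.22). Erythroid sums overlapped in the Runx2 cross (18379 to 20991 FPKM in R-WT, 4779 to 19296 FPKM in R-Het), with 0 of 8 called. The median log2 fold change of that list was -0.54 in the Med23 cross and -1.08 in the Runx2 cross. Neutrophil sums overlapped in both crosses, with medians of -0.68 and -1.47 and 1 of 6 and 0 of 6 tested genes called lower. The 13 skeletal muscle genes ranged from 28.2 to 1598 FPKM in P-Ctrl and 681 to 4779 FPKM in P-KO, and from 2197 to 6566 FPKM in R-WT and 31.3 to 214 FPKM in R-Het, with 10 of 13 lower in limma. The 6 endothelial genes summed to 101 to 110 FPKM in R-WT and 74.3 to 84.0 FPKM in R-Het, with 1 of 6 lower in limma. Macrophage and osteoclast genes (5293 to 6586 FPKM in R-WT, 3580 to 4391 FPKM in R-Het) and adipocyte genes (329 to 482 FPKM, 186 to 259 FPKM) were lower in R-Het without overlap, and epidermis genes were higher (3.25 to 4.44 FPKM, 4.54 to 5.65 FPKM). Of the tested genes of these lists, 0 of 8, 0 of 5 and 0 of 1 were called in the Runx2 cross. Plin1 of the adipocyte list was higher (0.21). No marker of these lists was at 0 in all mice. With the mean log2(FPKM + 1) of the muscle genes as a covariate, no gene of the group of 10 was called. The log2 fold change of Gadd45a was then -0.69 in the Med23 cross and -1.22 in the Runx2 cross, and that of Cdkn2b was -0.88 and -0.28. In the Runx2 cross the muscle list separated R-WT from R-Het without overlap. Muscle and genotype therefore cannot be told apart there, and nothing is read from the Runx2 values of this fit. The part of these cell types other than muscle in the levels of Gadd45a, Cdkn2b, Cdkn1a and Cdkn1c was not tested. That of muscle in the Runx2 cross could not be tested either.

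**Figure D4:**
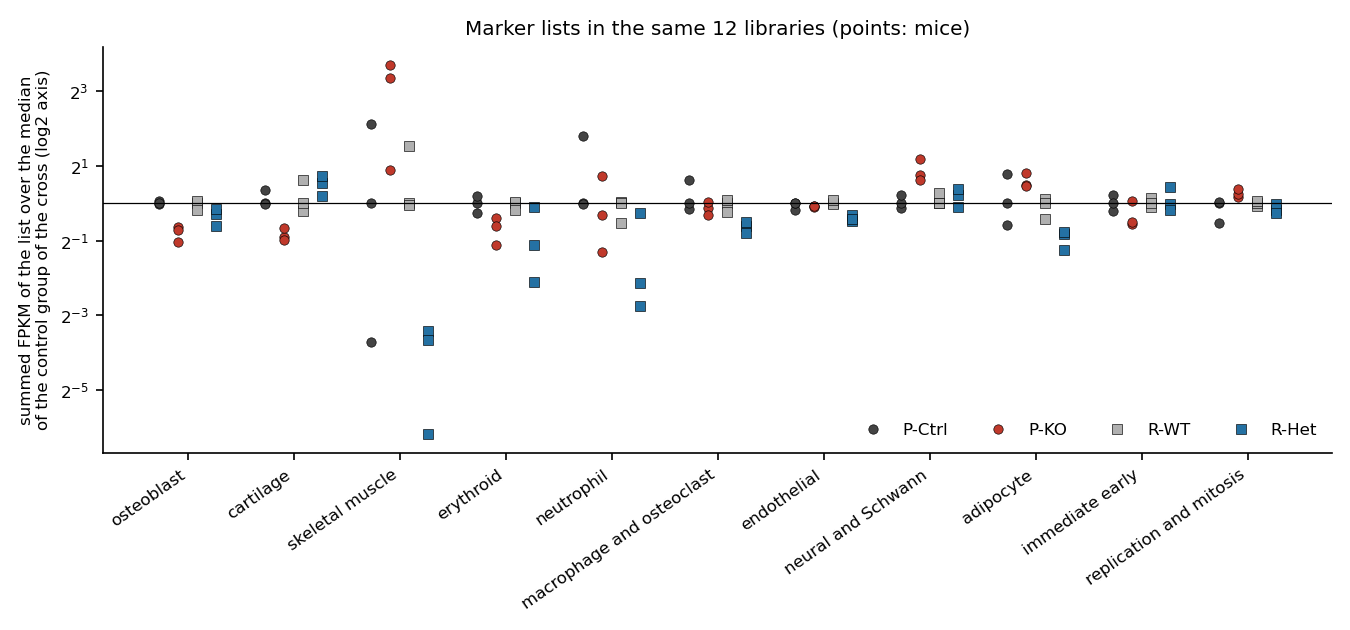
Summed FPKM of each marker or cell cycle list in each mouse over the median of the control group of its cross (log2 axis). The muscle list spreads most, with R-Het far below R-WT, and the osteoblast list lies below its controls in all 3 P-KO mice.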

How the data were processed

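RNA-seq values of 12 mice were used as deposited. For each mouse the authors deposited a list of RefSeq transcripts with an FPKM value each and no header. The unit was inferred from values that were not whole and summed to 891329 to 1068933 per mouse. The submitters' processing notes name Bowtie 0.12.8 and mm10, and the program that estimated transcripts is not given in the sources used here. Depth was estimated from the smallest value that 1 fragment is worth, in genes with 1 transcript of at least 2 kb, and is rough.

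Of 30411 transcripts, 29835 were matched to symbols by the RefSeq gene table of GRCm38.p6 and 180 by GENCODE, and 396 kept their identifier. Values were summed per gene. A gene needed 1 FPKM or more in 3 or more mice, and those passing (13059, the 10 genes of the report among them, Cdkn2a through 5 mice) were tested on log2(FPKM + 1) with limma 3.58.1 in R 4.3.3, with a mean-variance trend, in 1 fit of 6 mice per cross, and with Benjamini-Hochberg adjustment over all tested genes. Differences between crosses came from an interaction contrast over 12 mice. P-values rest on the spread between these mice, moderated towards a trend over all tested genes. Summing and motif searches used pandas 2.3.3 and numpy 2.4.6 under Python 3.11.15, and plots matplotlib 3.10.9.

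The 10 genes and all lists were chosen with earlier results of these data known. Genes named from a list were up to 3 per cross and direction with the largest change at an adjusted p under 0.05, or else the 1 with the largest change. Promoter windows came from RefSeq. The p53 motif was added later and searched in 2 versions, the second chosen after the first matched none of the windows. Alternatives were another pseudocount, other filters, scalings and fits, a replicate block, a muscle covariate, male libraries only and each mouse left out.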

Additional observations from a re-analysis of the deposited data

How the results depend on the processing

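No paired analysis was used as the main fit, because the labels give no litter for a number and not every same-numbered pair correlated over 0.1 (correlations of their deviations were 0.18, 0.26 and 0.053 in the Med23 cross and 0.0048, -0.047 and -0.084 in the Runx2 cross, and each P-Ctrl mouse correlated best with the P-KO mouse of its number). With the replicate block, calls over all genes went from 205 to 273 and from 247 to 90 in the Med23 and Runx2 crosses and from 20 to 136 for the difference, calls among the 10 genes stayed at 2 and went from 1 to 0 (Gadd45a), and list genes called were 4 and 1, where they had been 6 and 0. Calls among the 10 genes in the Med23 cross were 1 with no filter and with no trend, and 0 with no moderation, male libraries only or the muscle covariate. In the Runx2 cross they were 0 under those 5 settings. Calls over all genes in the Med23 cross were 35 with no filter, 717 with all 12 mice in 1 fit, 107 with the same FPKM sum, 0 with no moderation, 89 with no trend, 0 with male libraries only and 1 with the muscle covariate. In the Runx2 cross they were 18 with no filter, 95 with all 12 mice, 1 with no moderation, 34 with male libraries only and 0 with the muscle covariate. For the difference they were 2 with no filter, 43 at 5 FPKM, 37 with the same FPKM sum, 1 with no moderation, 1 with male libraries only and 0 with the muscle covariate. List genes called in the Med23 cross were 1 with no filter and 0 with no moderation, male libraries only or the muscle covariate, and in the Runx2 cross 1 with a pseudocount of 0.1, 1 with all 12 mice and 3 with median-ratio scaling. Leaving out 1 mouse gave 0 to 0 calls among the 10 genes in the Med23 cross and 0 to 1 in the Runx2 cross, 0 to 35, 34 to 169 and 2 to 164 over all genes for the Med23 cross, the Runx2 cross and the difference, and 0 to 3 list genes in the Med23 cross. The Med23 calls were 73 lower and 132 higher, and 65 and 42 with the same FPKM sum or 86 and 57 with median-ratio scaling. The same sum moved the median difference over all genes from 0.04 to -0.09. Log2 fold changes of genes with no call changed sign as follows. In the Med23 cross Cdkn1b was at 0.00083 with male libraries only and 0.0251 with the muscle covariate, Cdkn2a at 0.33 and 0.16 under the same settings, Cdkn2c at -0.0830 with the same FPKM sum and -0.0545 with median-ratio scaling, Cdkn2d at 0.11 and Gadd45g at 0.24 with male libraries only. In the Runx2 cross Cdkn2d was at 0.0314 with the muscle covariate and Gadd45g at -0.0401 with male libraries only. Leaving out 1 mouse gave -0.31 to 0.0262 for Cdkn2a, -0.10 to 0.12 for Cdkn2c and -0.0905 to 0.0640 for Cdkn2d in the Med23 cross, and -0.0939 to 0.10 for Gadd45b and -0.0401 to 0.26 for Gadd45g in the Runx2 cross. Cdkn1c was called in the Runx2 cross with the same FPKM sum and without R-WT 3, and Cdkn2b in the Med23 cross with all 12 mice. The cause was not tested. Depth limits Cdkn2a most, with at most 14 fragments.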

Other observations

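The nearest tested gene on each side of each of the 10 genes was looked up after the values had been seen. Among these neighbours 18 were not themselves members of the group. Of these, 1 rose in the Med23 cross at an adjusted p under 0.05 in limma, namely Srsf3, a splicing factor 47.6 kb from Cdkn1a, which was at 151 to 168 FPKM in P-Ctrl and 224 to 235 FPKM in P-KO (log2 fold change 0.50, adjusted p = 0.0360), opposite in direction to Cdkn1a. None of the 18 was called in the Runx2 cross. The neighbours of Gadd45a, Gng12 and Serbp1, had log2 fold changes of 0.09 and 0.31 in the Med23 cross and 0.34 and -0.03 in the Runx2 cross. Mtap, the gene beside Cdkn2a on the side away from Cdkn2b, was at 0.14 and 0.07.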
